A study of Mus musculus with 13 samples.

Results

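The cells described here were 1188 classical monocytes from the 3 numbered libraries in which hemoglobin transcripts were abundant, in a single-cell matrix deposited with a study of the mouse lung. Classical monocytes are made in the bone marrow, circulate in the blood and enter tissue through the chemokine receptor CCR2. Once in tissue they can take up the features of macrophages or of antigen-presenting cells. Monocytes respond within minutes to handling, adhesion and microbial signals with immediate early genes such as Fos and Dusp1, followed by cytokine genes such as Il1b and Cxcl2.

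The study sampled lungs of C57BL/6 mice, with 1 single-cell sample each titled Asthma, Control, PPE-emphysema and PPE-recovery. By its methods each came from 1 mouse, the asthma model being raised with ovalbumin, PPE-emphysema with repeated and PPE-recovery with single airway instillation of porcine pancreatic elastase (PPE). The other 9 labelled samples (3 Acute injury, 3 Con, 3 emphysema) were not analysed here. The matrix numbers its barcodes from 1 to 7 by library and no label ties a number to a group, and 7 libraries cannot each be 1 of these 4 samples. No treatment is therefore attached to any library, whether libraries 4, 5 and 6 come from the labelled lungs is not stated in the labels, and no test between libraries was made.

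Members were chosen on measured values: a barcode of library 4, 5 or 6, at most 10% of its UMIs (unique molecular identifiers, 1 per captured transcript) from mitochondrial genes, at least 5 UMIs summed over Ly6c2, F13a1, Vcan and Ccr2 with at least 2 of F13a1, Vcan and Ccr2 detected, and none of Cd209a, Cd3e and Cd79a. The gate kept 937 of 2992 barcodes of library 4 (31.3%), 151 of 4888 of library 5 (3.09%) and 100 of 4882 of library 6 (2.05%), which is 1188 of the 12762 barcodes of these libraries within the mitochondrial limit and of 33618 in the whole matrix. The same gate kept 370, 385, 339 and 76 barcodes of libraries 1, 2, 3 and 7, which serve as reference. Libraries 4, 5 and 6 held 3000, 5000 and 5000 barcodes, the lowest with 5735, 3439 and 3946 UMIs, against 304 to 501 in the other libraries. How that UMI limit acted on the shares of monocytes was not tested.

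Libraries 4, 5 and 6 stood apart over all their barcodes. The globin genes Hba-a1, Hba-a2, Hbb-bs and Hbb-bt took 38.5%, 39.9% and 34.8% of all their UMIs, and at most 0.0279% in any other library. Any 2 of the 7 libraries shared between 2 and 17 cell barcodes, libraries 4, 5 and 6 between 2 and 6, and 0 of the shared barcodes were members in both libraries. The gated cells held a median of 11521, 12136 and 11524 UMIs in libraries 4, 5 and 6, and 9582, 10049, 9797 and 12562 in libraries 1, 2, 3 and 7. Levels are given below as UMIs per 1000000 UMIs of the gated cells of a library (CPM), with 95% exact Poisson intervals that cover counting error only.

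The label was checked on the 20 further genes of the classical monocyte list. All 20 passed 20 CPM. Except for Cd14, in none did all levels of libraries 4, 5 and 6 lie at least 2-fold above or below every reference level. Lyz2, which encodes lysozyme, stood at 30744, 29569 and 37719 CPM in libraries 4, 5 and 6 and at 24272, 32023, 31545 and 18459 in libraries 1, 2, 3 and 7, which overlap. Plac8, Ms4a6c, Csf1r and Fn1 were present in all 7 libraries, Ms4a6c at 1345, 1432 and 1405 CPM against 600.2 to 1056. Hp, the gene of haptoglobin, which binds free hemoglobin, stood at 1077 (1058 to 1097), 791 (750.4 to 833) and 852 (799.5 to 908) CPM, above the reference range of 427 to 729, although the interval of library 7 (679.8 to 781) overlapped that of library 5. The gate genes themselves are no finding: Ly6c2 was detected in 97.4%, 96.7% and 97.0% of the members and in 59.2% to 90.9% of the reference cells, so that the reference held more cells without this marker. Just inside the gate, 5 cells of libraries 4, 5 and 6 with 5 gate UMIs had 16140 CPM of Lyz2 and 698 of Ms4a6c. Just outside, 5 cells with 4 gate UMIs had 19491 and 859. In library 5 the 1 cell just inside had 164 CPM of Lyz2 and no UMI of Ms4a6c.

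Between the gated cells of libraries 4, 5 and 6 and those of the reference, a gene was called lower when its highest level in the former was at least 2-fold below its lowest level in libraries 1, 2, 3 and 7, and higher in the opposite case. Of 6958 genes with at least 20 CPM in any library, 356 (5.12%) were called lower and 41 (0.589%) higher. Immediate early, cytokine, MHC class II and macrophage genes stood among the former, erythroid and platelet genes among the latter. A gene that reached 20 CPM in the reference alone could be called lower but not higher. The reverse held for libraries 4, 5 and 6. The minimum was required in 1 library only, so that a call could rest on few UMIs in the others. Ngp, a neutrophil granule gene, was called higher with 1 UMI each in libraries 5 and 6 and at most 1 in each reference library. Without cells holding 2 or more UMIs of other lineages' lists, 179 genes were called lower and 63 higher. Of these 105 and 19 were among those reported, and that filter left 5 cells of library 2. The B cells (at least 3 UMIs of Cd79a) and T cells (at least 2 of Cd3e) of the same libraries served as a measure of what was shared across cell types. Of the 356 lower genes 278 reached 20 CPM in B cells and 169 of these were called lower there too, and 191 of 278 in T cells, where 3.87% and 4.88% of all genes tested were called lower. The log2 ratio of the median level in libraries 4, 5 and 6 to that in the reference had a median of -0.03 over all genes tested.

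**Figure D1:**
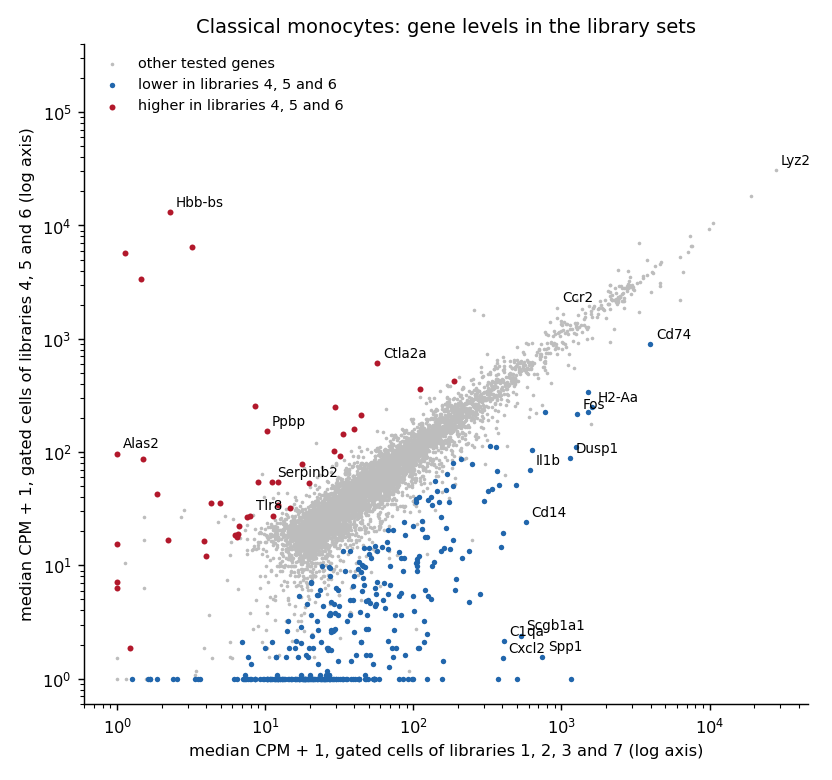
Median CPM plus 1 of each gene with at least 20 CPM in any library, in the gated cells of libraries 4, 5 and 6 (vertical) against libraries 1, 2, 3 and 7 (horizontal), both on log axes. The 356 genes called lower lie below the diagonal, many at 0 in libraries 4, 5 and 6, and the 41 called higher include the globin genes and Alas2 at the upper left, while Lyz2 and Ccr2 lie near the diagonal.

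Immediate early genes, the first genes switched on after a stimulus, were lower in the members. Of the 19 genes of the immediate early and heat shock list, 11 were called lower and 0 higher, beside 5.12% and 0.589% of all genes, with a median log2 ratio of -2.17 over the list. Fos, a subunit of the AP-1 transcription factor, stood at 214 (206 to 223), 400.2 (371 to 431) and 199.6 (174 to 227) CPM in libraries 4, 5 and 6, and at 1118, 1418, 889 and 1965 in libraries 1, 2, 3 and 7. Dusp1, a phosphatase that ends MAP kinase signals, stood at 62.9 (58.4 to 67.7), 175 (156 to 195) and 87.5 (71.1 to 106) against 1166, 1132, 1000 and 1580 CPM. For neither gene did the library sets overlap, and in both library 5 was the highest of the 3. Fosb was at 6.37, 18.4 and 23.9 CPM against 377 to 473, and Egr1, another immediate early transcription factor, at 1.13, 5.02 and 18.6 against 96.8 to 347. The chaperone genes Hspa1a and Hspa1b were also called, Hspa1a at 3.14, 6.14 and 4.42 against 34.3 to 85.9 CPM. The constitutive chaperone gene Hspa8, at 1208, 1341 and 1219 against 1393 to 2072 CPM, and Klf2, at 811, 909.9 and 714 against 482 to 1160, were not.

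Thinned to 3000 UMIs per cell, the members held a median of 11, 13 and 11 UMIs of this list in libraries 4, 5 and 6, and 31, 30.5, 27 and 43.5 in libraries 1, 2, 3 and 7. The middle ranges of single cells lay apart as well, with 75% of the members of library 4 at or below 14 UMIs and 75% of the cells of each reference library at or above 20. The difference was not limited to monocytes: B cells held 9, 11 and 10 against 16 to 23 UMIs, and T cells 9, 9 and 9 against 17 to 22. Of the 11 genes called, 9 were called lower in B cells too and 10 in T cells.

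Promoters are shown for 5 of the 11 genes called lower, chosen because a searched motif stands in each. RefSeq (GRCm38.p6) gave the 150 bases before the start of 16 of the 19 genes of the list, and 4 motifs were searched on both strands: the cyclic AMP response element (CRE) TGACGTCA, its core TGACG, which each full element holds on either strand, the AP-1 site TGANTCA, and the CArG box by name. The core stood in 6 of the 16 (Atf3, Dnajb1, Dusp1, Fos, Fosb and Junb) and in 13.3% of 32851 promoters of that length, and the full element in Dusp1 and 1.36% of promoters. The CArG box stood in Zfp36 and 0.916% of promoters, and the AP-1 site in 0 of the 16 and 4.24% of promoters. Jun, also called lower, held none of the 4, and Dnajb1 was not called. A match is a description of these letters and not a binding site. Capitals mark the CRE or its core in the first 4 sequences and the CArG box in the last, each written 5′ to 3′ along the gene's strand.
Fos, chr12:85473740-85473889, plus strand: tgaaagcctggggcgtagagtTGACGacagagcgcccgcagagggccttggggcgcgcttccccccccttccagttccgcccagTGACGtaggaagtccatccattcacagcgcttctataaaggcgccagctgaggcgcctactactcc
Fosb, chr7:19310046-19310195, minus strand: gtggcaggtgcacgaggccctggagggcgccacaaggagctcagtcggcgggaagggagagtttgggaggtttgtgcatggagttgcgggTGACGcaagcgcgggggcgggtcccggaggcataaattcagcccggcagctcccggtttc
Junb, chr8:84978749-84978898, minus strand: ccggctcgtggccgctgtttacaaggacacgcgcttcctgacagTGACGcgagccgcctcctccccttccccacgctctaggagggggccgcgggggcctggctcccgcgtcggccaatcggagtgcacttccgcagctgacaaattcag
Dusp1, chr17:26508473-26508622, minus strand: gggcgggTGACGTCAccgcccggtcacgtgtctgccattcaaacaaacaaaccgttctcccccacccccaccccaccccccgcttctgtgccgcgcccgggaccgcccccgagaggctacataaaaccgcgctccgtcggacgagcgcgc
Zfp36, chr7:28379229-28379378, minus strand: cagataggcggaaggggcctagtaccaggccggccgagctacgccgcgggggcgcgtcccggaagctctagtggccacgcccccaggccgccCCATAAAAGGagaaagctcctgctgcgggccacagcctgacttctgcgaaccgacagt
Zfp36, which destabilizes cytokine mRNA, was at 151, 283 and 225 CPM against 755 to 964, and Junb at 267, 392 and 336 against 1362 to 1995.

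Many cytokine and chemokine genes were lower too. Of 22 in the list 20 reached 20 CPM in some library, 15 of these were called lower and 0 higher. Only 4 of the 20 reached that minimum in libraries 4, 5 or 6. The others passed it through the reference, where they were high, and could not have been called higher. The count and the median therefore follow in part from the filter. The median log2 ratio was -3.53, or -3.24 with the 4 genes at 0 in all of libraries 4, 5 and 6 (Ccl7, Cxcl1, Cxcl3 and Il1a) placed at a floor of 3 UMIs per library. Cxcl2, a neutrophil attractant, had 6, 8 and 0 UMIs in the members, or 0.524, 4.47 and 0 CPM with an upper Poisson limit of 3.26 CPM for the 0, against 314, 475, 332 and 655 CPM in libraries 1, 2, 3 and 7. Its 8 UMIs in library 5 came from 1 cell. Il1b stood at 68.4 (63.7 to 73.4), 86.0 (72.9 to 101) and 43.3 (32.0 to 57.2) against 459.9 to 828 CPM. It was found in 10.9%, 11.3% and 9% of thinned members and in 34.8% to 54.8% of reference cells. The B cells of libraries 4, 5 and 6 held 85.0, 48.4 and 60.7 CPM of Il1b, more than the monocytes in libraries 4 and 6 and less in library 5. Osm, an IL-6 family cytokine, was at 1.48, 1.12 and 1.77 against 83.4 to 157 CPM. Ccl6, a chemokine that monocytes make constitutively, stood at 933, 1212 and 1216 against 1556 to 2568 CPM and was not called. Of the 15 called, 5 reached 20 CPM in B cells and 4 of these were called lower there too, and 6 of 8 in T cells.

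Cd14, the coreceptor for lipopolysaccharide, was the single gene of the monocyte list to be called. Its level was 22.6 (19.9 to 25.5), 40.8 (31.9 to 51.2) and 23.0 (15.0 to 33.7) CPM in libraries 4, 5 and 6 and 558, 589.5, 677 and 477 in libraries 1, 2, 3 and 7. Cd14 was called lower in B and in T cells too, where B cells held 3.86, 0.547 and 0.826 CPM against 8.25 to 60.4. The reference monocytes carried it in 47.3% to 67.0% after thinning and the members in 7.26%, 10.6% and 8%. Among the 17 pattern recognition receptors measured, Clec4n, Cd36 and the inflammasome sensor gene Nlrp3 were called lower as well, Nlrp3 at 37.6, 46.9 and 32.7 against 97.3 to 133 CPM, whereas Tlr2, Tlr4, Tlr7 and Tlr13 were not called in either direction. Tlr8, a sensor of single-stranded RNA, was the only receptor called higher, at 26.5 (23.6 to 29.7), 30.1 (22.6 to 39.3) and 18.6 (11.5 to 28.4) CPM against 5.01, 6.67, 7.23 and 9.03. The interval in library 6 overlapped that of library 7, which reached 16.6 CPM, and Tlr8 stayed under 20 CPM in B and T cells, where it could not be called.

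**Figure D2:**
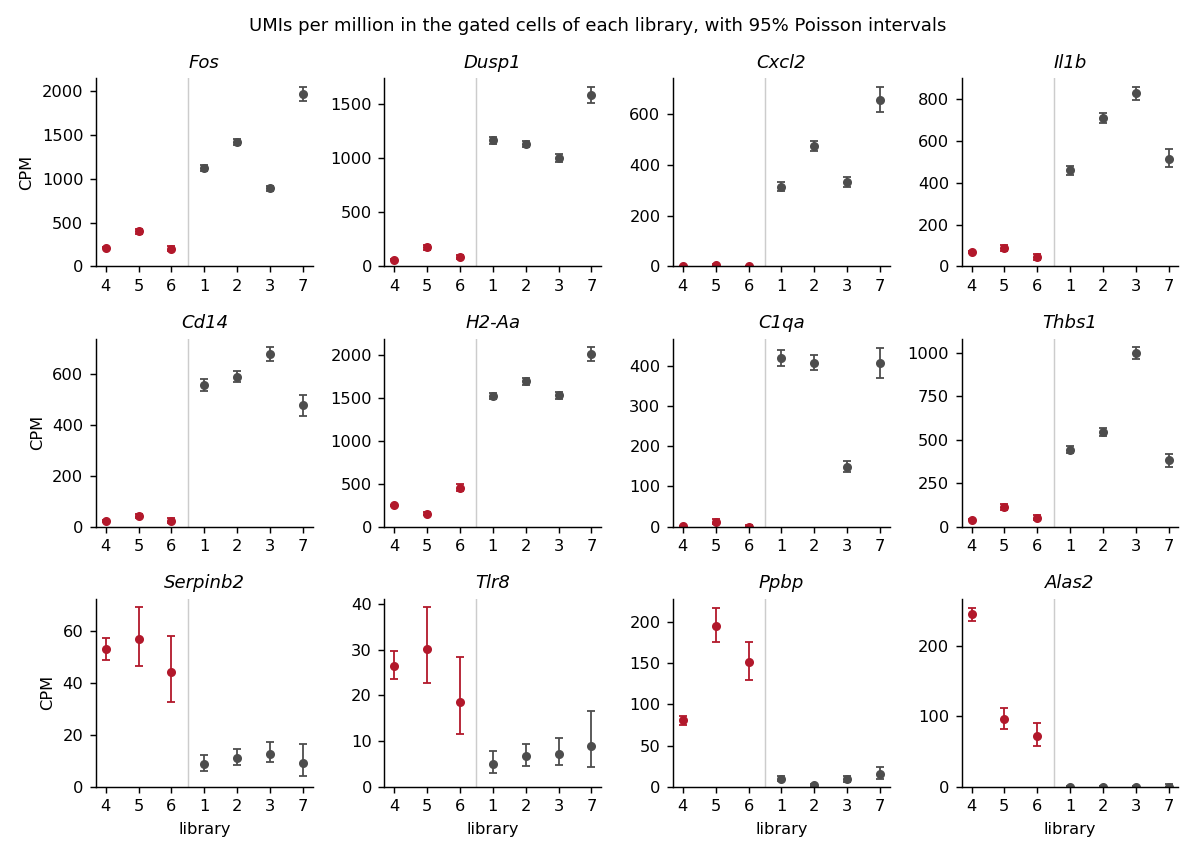
CPM of 12 genes in the gated cells of each library with 95% Poisson intervals on linear axes from 0, libraries 4, 5 and 6 in red and the reference libraries in grey. Fos, Dusp1, Cxcl2, Il1b, Cd14, H2-Aa, C1qa and Thbs1 are lower in the red libraries, and Serpinb2, Tlr8, Ppbp and Alas2 are higher, with no overlap of the library values.

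Genes of antigen presentation were lower, and fewer members were rich in them. Of 7 MHC class II genes tested, H2-Aa, H2-Ab1, H2-Eb1 and Cd74 were called lower and 0 higher, with a median log2 ratio of -2.16 over the 7. All 4 were called lower in T cells too, where the list summed to 82.5, 144 and 332 CPM against 852 to 3399, and 0 in B cells. H2-Aa, a chain of the MHC class II molecule I-A, stood at 248 (239 to 257), 147 (129.6 to 166) and 455 (416 to 496) CPM against 1522, 1692, 1530 and 2008. Cd74, the invariant chain, stood at 890.4, 496 and 1426 against 3522 to 4497 CPM. Members with at least 10 MHC class II UMIs per 3000 numbered 107 of 937 (11.4%, exact binomial interval 9.45 to 13.6), 10 of 151 (6.62%, 3.22 to 11.8) and 13 of 100 (13%, 7.11 to 21.2). In the reference they made up 25.7%, 32.7%, 30.4% and 35.5%. The interval of library 6 ended just below that of library 1, which began at 21.3%.

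These cells were picked by their MHC class II UMIs, so that Cd74, at 6652 CPM in those of library 4, and Ciita, the master regulator of these genes, at 177 against 13.1 CPM, only describe the choice. Tmem176b, outside the list, reached 731 CPM. The same 107 cells had less Ly6c2 (810.0 against 1285 CPM) and Vcan (97.9 against 287) and more Cx3cr1 (515 against 305), and Ccr2 at 1759 against 1489. Lower Ly6c2 was not shared by the 13 such cells of library 6, which had 1669 against 1398 CPM. The B cell gene Ms4a1 was at 0.803 CPM in them, and Zbtb46, a dendritic cell gene, also at 0.803, from 1 UMI each. In library 6 they had 2 and 1 UMIs in such cells, and in library 5 none. By the mean of the within-library Pearson correlations over the 1188 members, the genes most like the summed MHC class II list among 5774 were Tmem176b (0.401), Tmem176a (0.309), Psap (0.254), Slamf8 (0.240) and Apoe (0.229). These cells share their libraries and depth, and the values are weak.

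Many macrophage genes were lower. Of 16 tested, 6 reached 20 CPM in libraries 4, 5 or 6. The others passed that minimum through the reference, where they were high, so that the count and median follow in part from the filter. Of the 16, 9 were called lower (C1qa, C1qb, C1qc, Mrc1, Mertk, Cd63, Spp1, Mmp12 and Fabp4), 0 higher, at a median log2 ratio of -4.72. Of the 9, 8 reached 20 CPM in B cells and 7 of these were called lower there too, and 4 of 7 in T cells. C1qa, a chain of complement C1q, was at 1.13 (0.604 to 1.94), 12.3 (7.70 to 18.6) and 0 CPM against 421, 408, 149 and 407, and all of it in library 5 lay in 1 cell. A minority of the reference cells carried it, 12.7%, 9.61%, 6.49% and 21.1% having any UMI. Mrc1, the mannose receptor, was at 2.09, 12.8 and 10.6 against 92.6 to 366 CPM. The pan-macrophage genes Adgre1 (126, 138 and 125 against 117 to 175 CPM) and Cd68 (327, 344 and 352 against 299.6 to 348) overlapped between the sets. With at least 1 Ly6c2 UMI required of every cell, 292 genes were called lower in place of 356, 261 of them shared. Apoe, a lipid carrier of both monocytes and macrophages, stood at 1623, 1722 and 2704 against 3108 to 4307 CPM and was not called.

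**Figure D3:**
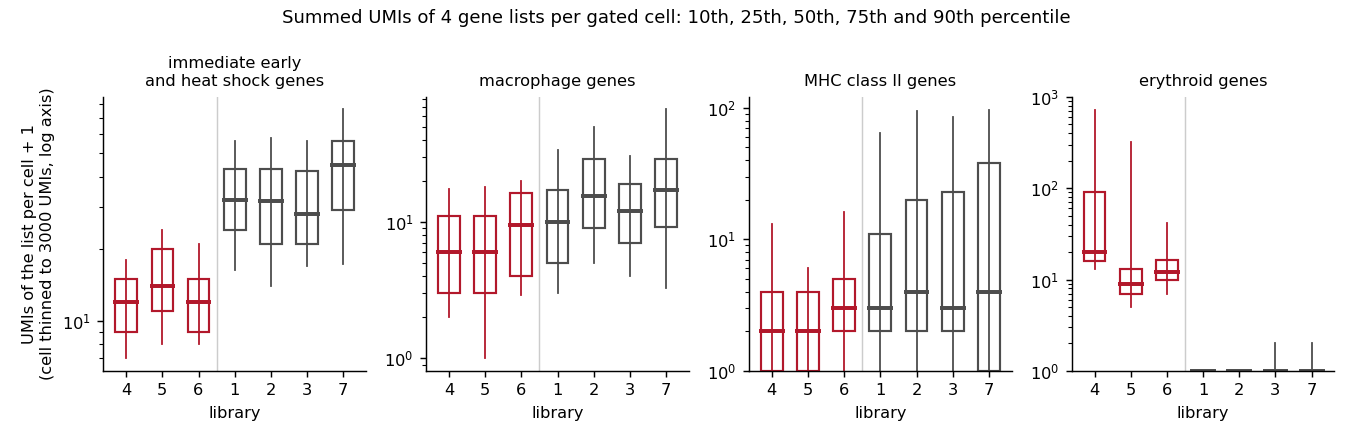
Summed UMIs of 4 gene lists plus 1 per gated cell after thinning to 3000 UMIs, on a log axis, by library; thick lines are medians, boxes the middle 50% of cells and thin lines the 10th to 90th percentile. Immediate early sums are lower in libraries 4, 5 and 6 with boxes apart, macrophage and MHC class II sums differ mainly in their upper parts, and erythroid sums above 0 fill libraries 4, 5 and 6 with a median of 19, 8 and 11 UMIs.

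Among genes of migration, matrix and proteolysis most were not called. Of 24 migration and growth factor receptors 3 were called lower, the chemerin receptor gene Ccrl2, Itgax and the complement receptor gene C5ar1, and 0 higher. Over all genes 5.12% were called lower and 0.589% higher. Of the 24, 18 reached 20 CPM in libraries 4, 5 or 6. Itgax, the integrin chain CD11c, was at 4.02, 4.47 and 3.53 against 32.5 to 166 CPM. Cx3cr1, the fractalkine receptor gene, was at 328, 436 and 488 against 208 to 289 CPM. Of 16 coagulation, matrix and protease genes, F7, Thbs1, Timp2, Mmp14 and Adam8 were called lower, beside 5.12% of all genes. F7, Mmp14 and Adam8 stayed under 20 CPM in libraries 4, 5 and 6. They passed that minimum through the reference, where they were high, and could not have been called higher. Of the 5, 3 reached 20 CPM in B cells and 1 of these was called lower there too, and 3 of 5 in T cells. Thbs1, the gene of thrombospondin, stood at 40.8, 111 and 50.4 against 380.0 to 997 CPM. B cells of libraries 4, 5 and 6 held 47.0, 94.1 and 71.1 CPM of Thbs1. In libraries 1, 2, 3 and 7 they held 4.51, 17.9, 47.2 and 4.79. Serpinb2, an inhibitor of plasminogen activators, was called higher at 53.0 (48.9 to 57.4), 56.9 (46.4 to 69.1) and 44.2 (32.8 to 58.2) against 8.78, 11.3, 12.8 and 9.03 CPM. It stayed under 20 CPM in B and T cells, where it could not be called.

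Cathepsins, the lysosomal proteases that the study is concerned with, were listed together with cystatins, which inhibit such proteases. Of the 12 genes of this list 11 reached 20 CPM in some library. Ctsk alone was called, lower at 0.611, 0.558 and 0 against 6.67 to 117 CPM, and in B and T cells too. Ctsl, the gene of cathepsin L, stood at 58.8 (54.5 to 63.4), 48.6 (38.9 to 59.9) and 51.2 (38.9 to 66.2) CPM in libraries 4, 5 and 6, and at 164, 229.8, 69.5 and 216 in libraries 1, 2, 3 and 7. Library 3 came close to the members, and its interval began at 61.2. B cells held 14.2, 4.65 and 6.36 against 27.4 to 84.9 CPM of Ctsl, and T cells 11.1, 5.54 and 3.74 against 36.5 to 75.2. Ctsd was at 183, 176 and 178 against 307 to 2086 CPM, and Ctss at 1714, 1944 and 1869 against 1798 to 2720. Vegfa was the single one of 11 glycolysis and hypoxia genes to be called, lower with 4, 2 and 0 UMIs against 25.3 to 59.9 CPM, and in B and T cells too. Among the transcription factors Bhlhe40 and Nfil3 were called lower, while Spi1, Irf8 and Zeb2 were not. Of 19 interferon-stimulated genes 0 were called in either direction, with a median log2 ratio of 0.69 against -0.03 for all genes.

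Genes of red blood cells and platelets were among those called higher. Of 11 erythroid genes, 10 were called higher, and 3 of 4 platelet genes. Libraries 4, 5 and 6 were chosen for their abundant hemoglobin transcripts, so that higher red cell genes restate that choice and are no finding. The erythroid and platelet genes called stayed under 20 CPM in the reference. They passed that minimum through libraries 4, 5 and 6 and could not have been called lower. Both counts therefore follow in part from the filter. Hbb-bs was at 37211, 13123 and 10963 CPM and between 0.752 and 2.08 in the reference. Alas2, the first enzyme of heme synthesis in red cells, was at 245 (236 to 254), 96.0 (82.2 to 111) and 72.4 (57.6 to 89.9) CPM and had 0 UMIs in all 4 reference libraries, at least 26.8-fold higher in the lowest of libraries 4, 5 and 6 against 3 UMIs per library. B cells of the same libraries held 725, 267 and 218 CPM of Alas2 and 113772, 37296 and 38749 of Hbb-bs, above the monocytes. Of the 10 erythroid genes called, 9 were also called in B cells and 9 in T cells.

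The platelet chemokine gene Ppbp stood at 80.6 (75.5 to 85.9), 195 (175 to 217) and 151 (129 to 175) CPM against 1.88 to 15.3, and Gp9, a platelet glycoprotein, at 27.4, 50.8 and 41.5 against 0.501 to 4.51. Ctla2a, the gene of a cathepsin inhibitor, stood at 391, 629.7 and 608 against 49.6 to 93.0 CPM, and Nrgn at 137, 307 and 253 against 2.08 to 24.4. In all 4 of these genes library 4 was the lowest of the 3 libraries, whereas it was the highest for globin genes. B cells had like or higher levels, 83.0, 238 and 306 CPM for Ppbp and 459, 855 and 1197 for Ctla2a. F630028O10Rik, an unnamed transcript, was higher in the monocytes (204, 209.9 and 300.3 against 30.7 to 56.1 CPM) and stood at 65.7, 12.9 and 24.1 in B cells.

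Red cell transcripts were spread unevenly over the members. Globin genes took 6.98%, 2.86% and 2.28% of member UMIs, 21.6%, 8.14% and 8.22% in B cells and 12.3%, 4.06% and 5.35% in T cells. The median member of library 4 had 0.613% globin UMIs, that of library 5 0.25% and that of library 6 0.375%. Cells with at least 10% globin UMIs numbered 192 of 937 (20.5%, 17.9 to 23.2), 16 of 151 (10.6%, 6.18 to 16.6) and 8 of 100 (8%, 3.52 to 15.2), and 54.0%, 16.9% and 14.1% of B cells. The 192 cells of library 4 had a median of 14871 UMIs against 11012 in the others and Alas2 at 862 against 36.3 CPM. Their Ly6c2 was at 925 against 1338 CPM and their Lyz2 at 23633 against 33149. Globin UMIs count in the totals of these cells, so that the choice itself lowers the CPM of other genes. What difference in Ly6c2 and Lyz2 remains without globin UMIs was not tested. Whether they are pairs of cells in 1 droplet was not tested. Without all members of that kind in libraries 4, 5 and 6, 353 genes were called lower and 38 higher, 347 and 33 of them among those reported.

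Library 4 gave the most monocytes and was set beside libraries 5 and 6. Of 6085 genes with at least 20 CPM in any of the 3, 22 (0.362%) were at least 2 times higher in library 4 than in each of the others and 23 (0.378%) at least 2-fold below both. With each cell thinned to 3000 UMIs the counts were 29 and 97. All genes tested had a median log2 ratio of -0.17 to library 5 and -0.12 to library 6, and of -0.11 and -0.05 with globin UMIs left out of the totals. None of the 20 monocyte genes was called in either direction. Neutrophil and erythroid genes supplied 4 and 8 of the 22 higher genes. Of the 22, 16 could be tested in B cells and 15 were called higher in library 4 there too, where 3.36% of all genes tested were. In T cells it was 9 of 14, beside 0.703%. The B cells of library 4 held more UMIs of other lineages than those of libraries 5 and 6. Their 20 monocyte genes summed to 10252 against 4474 and 3455 CPM, and their neutrophil genes to 12651 against 1195 and 4062.

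Camp, Ngp and Ltf, granule protein genes of maturing neutrophils, were at 78.3 (73.3 to 83.6), 86.8 (81.5 to 92.3) and 33.5 (30.2 to 37.0) CPM in library 4. Libraries 5 and 6 had 0 UMIs of Camp and Ltf and 1 UMI each of Ngp, which makes Camp at least 29.5-fold and Ltf at least 12.6-fold higher against 3 UMIs per library. Few cells carried them: Camp was found in 40 of the 937 members, 10 of which held 96.7% of its 897 UMIs, and without these 10 it fell to 2.65 CPM. Lcn2, the gene of the iron-carrier binding protein lipocalin 2, was the other neutrophil gene called, at 115, 15.1 and 23.9 CPM, and was found in 213 members of library 4, where it stood at 68.1 CPM without the 10 cells of most UMIs. B cells of library 4 held 556 CPM of Camp and 525 of Ngp, T cells 0 and 4.76. S100a8, an alarmin that neutrophils carry in quantity, was at 1696, 787 and 1608 CPM in libraries 4, 5 and 6 and at 26.1 to 640.5 in the reference. In libraries 5 and 6, 10 cells held 94.6% and 95.3% of its UMIs, and in library 4 40.7%. Without the 10 cells of most UMIs it stood at 1020, 45.3 and 85.1 CPM, and at 12.1 to 68.4 in the reference. The 13 neutrophil genes summed to 4235, 2107 and 3977 CPM against 248 to 1858, with S100a9 the gene of most UMIs in all of libraries 4, 5 and 6. Without its 10 cells of most UMIs S100a9 stood at 1025, 54.0 and 121 CPM in libraries 4, 5 and 6, so that few cells carried much of these sums.

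Members with at least 50 UMIs of the neutrophil list numbered 60 of 937 (6.4%, 4.92 to 8.17), 5 of 151 (3.31%, 1.08 to 7.56) and 5 of 100 (5%, 1.64 to 11.3), with overlapping intervals, and 0 to 2.95% in the reference. By the genes that chose them, these 60 cells of library 4 held 21397 CPM of S100a8 against 136 in the other members, 1031 against 2.83 of Camp and 309 against 1.41 of Cxcr2. The gate required its genes of every member, so that their presence in these cells is no finding. Ly6c2 was at 1256 against 1232 CPM and Ccr2 at 1267 against 1538. The 5 such cells of library 5 and the 5 of library 6 had 21215 and 23654 CPM of S100a8 but 0 UMIs of Camp and Ltf, and their Ly6c2 was lower than in the other members, at 710 against 1759 and 773 against 1475. B cells passed the same limit in 7.33%, 1.65% and 3.36%. Without these members, 20 genes were called higher in library 4 and 28 lower, 18 and 19 of them among those reported.

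**Figure D4:**
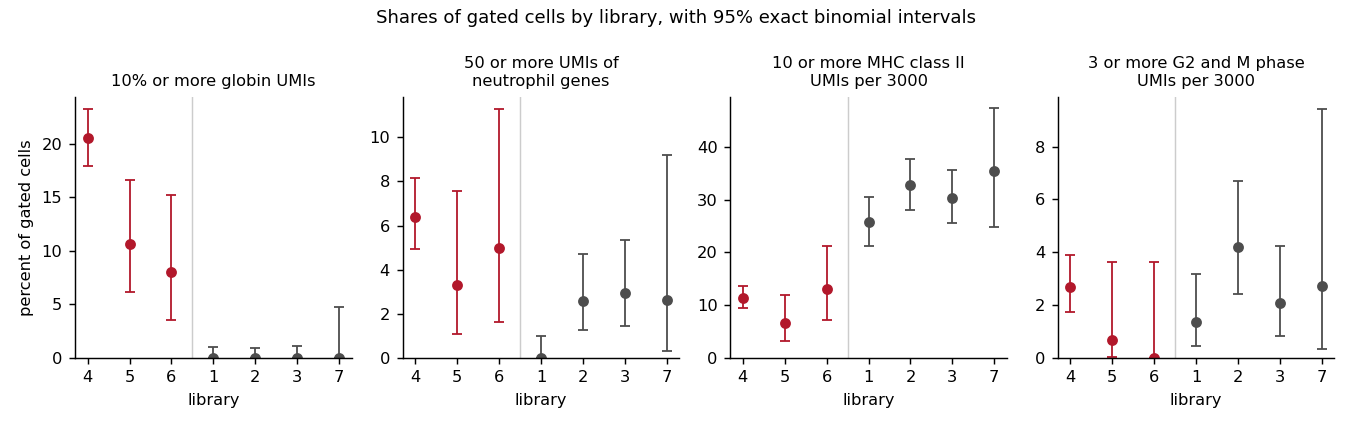
Percent of the gated cells of each library that met 4 limits, with 95% exact binomial intervals on linear axes from 0, libraries 4, 5 and 6 in red. Cells with 10% or more globin UMIs appear only in red libraries (20.5%, 10.6% and 8%), MHC class II rich cells are fewer there (6.62% to 13%), and within libraries 4, 5 and 6 the shares of cells with neutrophil or G2 and M phase UMIs have overlapping intervals.

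Some genes of cell division were higher in library 4 than in libraries 5 and 6. Ube2c and Stmn1, genes of mitosis and of microtubule turnover, were called higher at 32.4 (29.2 to 35.9) against 7.26 and 4.42 CPM and at 21.1 (18.5 to 24.0) against 2.23 and 2.65, and stood at 2.71 to 64.6 and 59.8 to 158 CPM in the reference. Stmn1 lost its call in 7 alternative settings, thinning and leaving out dividing members among them, and Ube2c in 2. Members with at least 3 UMIs of the G2 and M phase list, thinned to 3000 UMIs, numbered 25 of 937 (2.67%, 1.73 to 3.91) in library 4, 1 of 151 (0.662%) in library 5 and 0 of 100 in library 6, where the exact interval reached 3.62%. Unthinned, the shares were 13.8%, 7.28% and 2%. The thinned share of library 4 also moved with the depth and the UMI limit. It was lower without cells holding other lineages' UMIs. The reference had 1.37%, 4.19%, 2.08% and 2.70%, and B cells of library 4 had 3.33% and T cells 0%, at median depths of 9209 and 9068 UMIs. The intervals of the thinned shares of libraries 4, 5 and 6 overlapped. Set against the reference, 3 of 13 G2 and M phase genes tested were called lower in libraries 4, 5 and 6 (Top2a, Cdk1 and Ccna2). So were 3 of 9 S phase genes (Mcm7, Rrm1 and Rrm2), and 0 were higher. In B cells 2 and 1 of these were called lower too, and 0 in T cells. The median log2 ratios were -2.54 and -1.51 beside -0.03 over all genes. Only 3 of the 13 and 2 of the 9 reached 20 CPM in libraries 4, 5 or 6. The others passed that minimum through the reference, where they were high. These counts and medians therefore follow in part from the filter. Top2a, the topoisomerase of chromosome segregation, was at 6.02, 3.91 and 2.65 against 31.6, 82.9, 18.4 and 41.5 CPM.

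By the list that chose them, which holds Mki67, the 25 cells carried that marker of cycling cells at 427 (361 to 501) against 5.67 CPM in the other 912. Hmgb2, a chromatin protein gene of dividing cells outside the list, was at 3657 against 541. Their Ly6c2 was 1670 against 1220 CPM, Cx3cr1, which rises as monocytes mature, 171 (130 to 220) against 333, and S100a8 5543 against 1574. Mpo, Kit and Cd34, genes of progenitors, had 0 UMIs in them with an upper Poisson limit of 10.5 CPM. The granule protease genes Prtn3 and Elane were higher in them, Prtn3 at 114 (81.3 to 155) against 69.1 (64.3 to 74.1) CPM in 16 of the 25 cells and Elane at 28.5 (13.6 to 52.3) against 4.14 (3.03 to 5.53) from 10 UMIs in 2 cells. Across all members Mpo had 4, 0 and 0 UMIs and Kit 0, 2 and 0, while Prtn3, a granule protease gene of early myeloid cells, was at 70.4 (65.7 to 75.5), 31.8 (24.1 to 41.2) and 11.5 (6.11 to 19.6) CPM and found in 382, 39 and 12 cells. Libraries 1, 2, 3 and 7 held 34.9, 13.8, 70.4 and 38.8 CPM of Prtn3, which overlap the members. In library 3, 184 of its 253 UMIs lay in 1 cell, and in library 7 25 of 43.

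Genes lower in library 4 included lymphoid genes and genes carried by many monocytes. Of the 23, 13 could be tested in B cells and 10 were called lower there too, where 7.65% of all genes tested were. In T cells it was 8 of 16, beside 6.73%. Klra4, Klra9, Nkg7, Klrk1, Ccl5 and Gzma are genes of natural killer and cytotoxic T cells. Gzma, the gene of granzyme A, was at 7.86, 141 and 42.4 CPM, but 85 of its 90 UMIs in library 4 and 45 of its 48 in library 6 lay in 1 cell each, and 73 of its 252 in 1 of 13 cells of library 5. The 5 natural killer genes summed to 9.78, 190 and 59.2 CPM, with Ncr1, their defining receptor, in 1, 5 and 1 cells. For Gzma and Nkg7 library 4 was no longer below both others when gates that drop a few cells were used. Klra9 lost its call in 6 alternative settings, Nkg7 in 5, Klra4, Ccl5 and Gzma in 4 each and Klrk1 in 2. Lpl, the gene of lipoprotein lipase, was carried by many cells, 255, 88 and 57, at 75.7 (70.7 to 80.9), 219 (198 to 242) and 226 (199 to 256) CPM. Flt1, a VEGF receptor gene, was at 16.1, 53.6 and 46.8 CPM and Ifi213, an interferon-induced sensor gene, at 30.8, 102 and 76.0. Ifit2, Ifit3 and Ifi213 were the 3 of 18 interferon-stimulated genes called lower in library 4, Ifit3 at 32.5 (29.3 to 35.9), 75.9 (63.7 to 89.8) and 68.9 (54.5 to 86.0). B cells of libraries 4, 5 and 6 held 5.79, 25 and 18 CPM of Ifit3, in the same order.

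Libraries 5 and 6 held few members, and their differences rested on fewer UMIs. Of 6017 genes, 107 (1.78%) were at least 2 times higher in library 5 and 46 (0.765%) in library 6, on 151 and 100 cells. Of the 107, 66 could be tested in B cells and 3 were called there too (0.720% of all genes tested), and 7 of 65 in T cells (8.09%). Of the 46, it was 4 of 25 in B cells (0.360%) and 11 of 30 in T cells (1.53%). Library 6 was higher in H2-Eb1, H2-Ab1, H2-Aa and Cd74, at 2.87- to 5.08-fold, with 3 B cell genes higher too, the whole list summing to 466 against 282 CPM. Library 6 also had more Cxcl10, an interferon-induced chemokine gene, at 90.1 (73.5 to 109) against 20.1 (14.1 to 27.8) CPM, from 7 and 9 cells. Library 5 was higher in Fos (400.2 against 199.6 CPM), in Sik1 (38.5 against 10.6) and in Cxcr4, a receptor that holds leukocytes in the bone marrow, at 123 (107 to 140.2) against 53.0 (40.4 to 68.2). Cxcr4 in library 4 was 37.4 CPM, and B cells kept the order with 75.3, 270.2 and 143 CPM in libraries 4, 5 and 6. Retnla, highest on the list of genes above library 6, had all of its 25.1 CPM in 1 cell.

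Markers of lung structural cells were nearly absent from the members. Of 6 lung epithelial genes Sftpc, Sftpa1, Sftpb, Epcam and Krt8 had 0 UMIs in libraries 4, 5 and 6, and Scgb1a1, the club cell secretory protein gene, had 16, 3 and 1, which is the whole list. The reference held 211, 482, 576 and 19141 CPM of Scgb1a1, with 99.6% of its UMIs in library 7 from 1 cell. The 4 epithelial genes called lower were called in B and in T cells too. The 3 fibroblast genes summed to 0, 0 and 1 UMI in the members. All 4 endothelial genes were called lower, 3 of them in B cells too and 3 in T cells. Cldn5 was at 0 in all of libraries 4, 5 and 6, and the list summed to 10.6, 16.7 and 14.1 CPM, led by Pecam1, against 181 to 347 CPM in the reference. No epithelial, fibroblast or endothelial gene of these lists reached 20 CPM in libraries 4, 5 or 6. Those called passed that minimum through the reference, where they were high, and could not have been called higher. Their counts therefore follow in part from the filter. The 8 B cell genes summed to 192, 282 and 466 CPM, led by Ighm, against 124 to 208, and the 7 T cell genes to 4.02, 10 and 11.5. What part the differing amounts of free RNA had in the genes called lower was not tested.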

How the data were processed

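The authors deposited 1 matrix of whole-number UMI counts per gene and barcode (31053 genes, 37344 barcodes, 7 numbered libraries), made with Cell Ranger 3.1.0 (file header) and STAR on mm10 according to the submitters' processing notes and the study's methods. By those methods reads were down-sampled to even out the libraries and 3′ kits were used, of a version on which the labels and the paper differ. Gene positions came from GENCODE M21, which held 30934 of the identifiers, and promoter sequences from RefSeq.

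The members, the gene lists, the limits and the comparisons were chosen with earlier results of these data known. UMI counts were summed over gated cells by library and scaled to CPM, and calls used at least 20 CPM and a fold of 2. Log2 ratios used a pseudocount of 1 CPM and medians over libraries. With 1 library of unknown group each, no test was run. Poisson and Clopper-Pearson intervals (95%) cover counting error. A UMI counts a transcript's 3′ end, so levels are not divided by gene length. Shares of thinned cells with a gene and of cells in division were taken after thinning to 3000 UMIs, which left out 0 members and 5, 3, 3 and 2 cells of libraries 1, 2, 3 and 7. MHC class II UMIs were scaled to 3000 by each cell's total, and limits on globin and neutrophil UMIs were set on all UMIs, with every cell kept. No doublet caller was run, and the gate removed 62 of 999, 41 of 192 and 74 of 174 cells of libraries 4, 5 and 6 with Cd209a, Cd3e or Cd79a. Libraries 4, 5 and 6 held 150, 1637 and 1966 B cells (median 9209, 5464 and 5053 UMIs) and 65, 194 and 219 T cells (9068, 8034 and 6949). Genes were named as the 12 of each comparison with the largest ratio of facing Poisson bounds, leaving out gate, globin, immunoglobulin, mitochondrial, ribosomal and sex-linked genes, and as members of the lists with the highest level or largest difference. Some genes of the lists are not reported here. The calling step was checked on simulated counts. Tools were Python 3.11.15, numpy 2.4.6, scipy 1.17.1, pandas 2.3.3 and matplotlib 3.10.9.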

Additional observations from a re-analysis of the deposited data

How the results depend on the processing

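No paired analysis was possible because the libraries carry no group and the labels tie no replicate number to them. All counts below are of genes unless stated, in the order higher in library 4, lower in library 4, higher in libraries 4, 5 and 6, lower in libraries 4, 5 and 6 (22, 23, 41 and 356 as reported). A minimum of 5 CPM gave 54, 170, 79 and 816, and of 50 CPM gave 13, 10, 30 and 206. A fold of 1.5 gave 49, 193, 87 and 460, and of 3 gave 14, 10, 20 and 272. Against library 5 alone, 37 were higher and 101 lower in library 4, and against library 6 alone 49 and 76. The mean of single-cell CPM gave 37 lower in library 4 and thinning to 3000 UMIs gave 97, beside 29 higher. Leaving out 1 library at a time gave 43 to 56 higher and 330 to 411 lower in libraries 4, 5 and 6. Leaving out cells with 2 or more UMIs of a B, T, NK, red cell, endothelial, fibroblast or epithelial list kept 234 members (196, 28 and 10 in libraries 4, 5 and 6) and gave 71, 146, 63 and 179 genes, of which 10, 11, 19 and 105 were shared with those reported, and 0.510% dividing members in library 4. That filter left 87, 5, 13 and 21 cells in libraries 1, 2, 3 and 7, and 546 of the 937 members of library 4 held 2 or more B cell UMIs. The dividing share was 1.49% when thinned to 1500 UMIs, 4.16% at 5000 UMIs and 5.02% with at least 2 UMIs. The gate limits of 3 and 10 UMIs, mitochondrial limits of 5% and 20%, the study's limits on UMIs and genes, required Ly6c2, totals without globin and members without dividing cells kept every count within 1.5 times.

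Of 48 named genes and comparisons 17 kept their call in every setting and 31 lost it in at least 1. Of 1032 values, 57 kept the direction or came to 0 without a call and 15 were negative. Stmn1 lost its call in 7 settings, Klra9 in 6, Nkg7 in 5, Ccl5, Gzma and Klra4 in 4, Ets1, Fosb and Slc4a1 in 3, and the others in 1 or 2. Of the lost calls, 20 fell without cells holding other lineages' UMIs, 10 at a minimum of 50 CPM and 8 at a fold of 3. Values are the log2 ratio of the lowest level on the side called higher to the highest on the other side, so that a negative value means that the sets were no longer apart in the direction called; it does not say that every library changed order. Nkg7 went to -0.81 and Gzma to -1.29 with a gate of 10 UMIs, to -0.80 and -1.29 with Ly6c2 required, and to -0.79 and -1.31 without neutrophil-rich members. Without cells holding other lineages' UMIs, Nkg7 and Gzma went to -0.58, Klrk1 to -2.15, Ccl5 to -1.79, Gm15987 to -1.14, Bpgm to -2.69, Epas1 to -2.04 and Osm to -2.04. With Ly6c2 required, Retnla went to -2.81. Few cells carry the lymphoid genes and Retnla, and for the others the cause was not tested. Leaving out neutrophil-rich or globin-rich members was chosen after seeing the data. It gave 20 and 21 genes higher in library 4, 28 and 20 lower, 43 and 38 higher and 352 and 353 lower in libraries 4, 5 and 6. Of these, in the same order, 18 and 15, 19 and 17, 37 and 33, and 335 and 347 were shared with those reported. Each setting lost 7 of the named calls. Depth limits the smaller libraries, 3 UMIs being 2.65 CPM in library 6, 2.71 CPM in library 7 and 0.262 CPM in library 4.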
